A study of Mus musculus with 12 samples.

Results

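The suppressor of cytokine signalling (SOCS) family consists of Socs1 to Socs7 and Cish, 8 genes of the 19937 tested here. Members were taken by symbol from the annotation of the array. Only probe sets that name 1 gene were used, which left 12 of the array's 34760 probe sets. Socs6 has 3 of these, Socs2 and Socs3 have 2 each, and the other genes have 1, and a gene is represented by its brightest probe set on average over all 12 arrays.

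The series measured newly made RNA, marked with 4-thiouridine for 60 min and hybridised to whole-transcript arrays, in 2 kinds of C57BL/6 mouse macrophage. MPI-2 is a single line derived from fetal liver whose growth depends on GM-CSF, and it was kept in RPMI with serum and GM-CSF. BMM are macrophages differentiated from bone marrow, kept in DMEM with serum and M-CSF. The 4 groups of 3 arrays are MPI-2 LPS, MPI-2 mock, BMM LPS and BMM mock, where LPS means lipopolysaccharide (R-LPS, a ligand of Toll-like receptor 4) at 0.1 mg/ml as the labels print it, with 4-thiouridine added 30 min later, and mock means unstimulated. No genotype difference between the groups is given in the labels, and the cell type cannot be told apart from its medium, its growth factor or any batch of arrays.

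SOCS proteins are brakes on cytokine receptors. Receptors without a kinase of their own use Janus kinases (JAKs), which phosphorylate the receptor and the STAT transcription factors docking there, and STATs then switch on genes that include Cish and several Socs genes. A SOCS protein binds phosphorylated receptors or JAKs through its SH2 domain and recruits a ubiquitin ligase through its SOCS box, and SOCS1 and SOCS3 also block the JAK active site directly. In macrophages, SOCS1 is best known for limiting interferon signalling, SOCS3 for limiting signalling from the interleukin 6 receptor, and Cish as a target of STAT5, which GM-CSF activates.

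All 11 macrophage markers, among them Adgre1, Csf1r and Cd68, lay above background in every group. Background is 3.36 on the log2 scale, the value under which 95% of 1027 olfactory receptor genes had their 12-array mean. Markers of other cells above it numbered 1 to 2 of 6 for T cells, 0 to 2 of 4 for B cells, 1 of 4 for NK cells, 2 of 7 for neutrophils, 0 to 1 of 5 for mast cells and 0 of 2 for erythroid cells. Of 5 hepatocyte markers, 3 were above it in BMM LPS (Alb, Apoa1 and Hnf4a) and 2 in the other groups. Of 4 dendritic cell markers, Zbtb46 alone was above it in MPI-2, 3 were in BMM LPS (with Cd209a and Xcr1) and 2 in BMM mock. Col1a1, Col1a2 and Pdgfra of the 4 fibroblast markers were above it in every group, Dcn below. The mean level of the fibroblast list ran from 3.92 to 4.00 in MPI-2 LPS arrays, 4.19 to 4.30 in MPI-2 mock, 3.84 to 4.02 in BMM LPS and 3.73 to 3.91 in BMM mock, and the part of these other markers in the results was not tested. Arrays of a group correlated at 0.994 to 0.996 in MPI-2 and at 0.975 to 0.989 in BMM. The interquartile range over all genes was 3.10 to 3.22 in MPI-2 LPS, 3.27 to 3.47 in MPI-2 mock, 2.34 to 2.74 in BMM LPS and 2.80 to 2.93 in BMM mock, so values were more spread out in MPI-2 arrays. BMM LPS replicate 2 was the highest array of its group for 7 of the 8 members and BMM LPS replicate 3 the lowest for 6, and BMM mock replicate 1 was the highest of its group for 6, so results that turn on these arrays are given without them as well.

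Cish, Socs1 and Socs3 are the members with the largest LPS differences in BMM, and their promoters are shown because the pathway's transcription factors are known to act there. RefSeq promoters of GRCm38.p6 were used for 4 of the 8 members, Cish, Socs1, Socs3 and Socs4. Their windows run from 250 bases before to 50 after the transcription start. Promoters of Socs2, Socs5, Socs6 and Socs7 were not searched, so whether they hold these motifs was not tested. Both strands were searched for TTCNNNGAA, the palindrome that STAT dimers bind, for GAAANNGAAA, a form of the interferon-stimulated response element, and for the NF-kB consensus. Capitals mark the matches, and positions count from the start site, with 1 as its first base. The Cish stretch is chr9:107296489-107296688 on the plus strand, bases -170 to 30, and the Socs1 and Socs3 stretches are chr16:10785537-10785706 and chr11:117969367-117969536, both on the minus strand and ending at base -1. The Socs3 start in that table lies inside the longest RefSeq span of the gene, chr11:117966079-117970336.
Cish: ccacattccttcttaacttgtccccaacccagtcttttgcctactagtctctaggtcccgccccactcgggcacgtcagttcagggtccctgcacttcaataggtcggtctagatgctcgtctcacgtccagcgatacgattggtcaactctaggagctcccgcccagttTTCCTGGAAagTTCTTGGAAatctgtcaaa
Socs1: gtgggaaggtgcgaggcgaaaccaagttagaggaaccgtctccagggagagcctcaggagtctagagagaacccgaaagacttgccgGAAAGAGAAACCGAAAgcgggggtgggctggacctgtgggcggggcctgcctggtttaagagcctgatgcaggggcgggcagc
Socs3: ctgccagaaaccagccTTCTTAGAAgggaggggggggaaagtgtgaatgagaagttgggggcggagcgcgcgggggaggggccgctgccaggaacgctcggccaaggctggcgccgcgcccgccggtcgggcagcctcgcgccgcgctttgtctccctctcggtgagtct
Cish held 2 STAT palindromes, at bases 1 to 9 and 12 to 20. Socs3 held 1, at bases -154 to -146. Socs1 held 2 overlapping matches of the interferon element, at -83 to -74 and -77 to -68, and no palindrome in this window. Socs4 held no match of the 3 motifs in its window. The NF-kB consensus had no match in the window of Cish, Socs1, Socs3 or Socs4. Of 32851 promoter windows of the same length, 8.3% held the palindrome and 0.457% held it at least 2 times, 3.44% held the interferon element and 0.225% held it at least 2 times, and 4.51% held the NF-kB consensus.

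**Figure D1:**
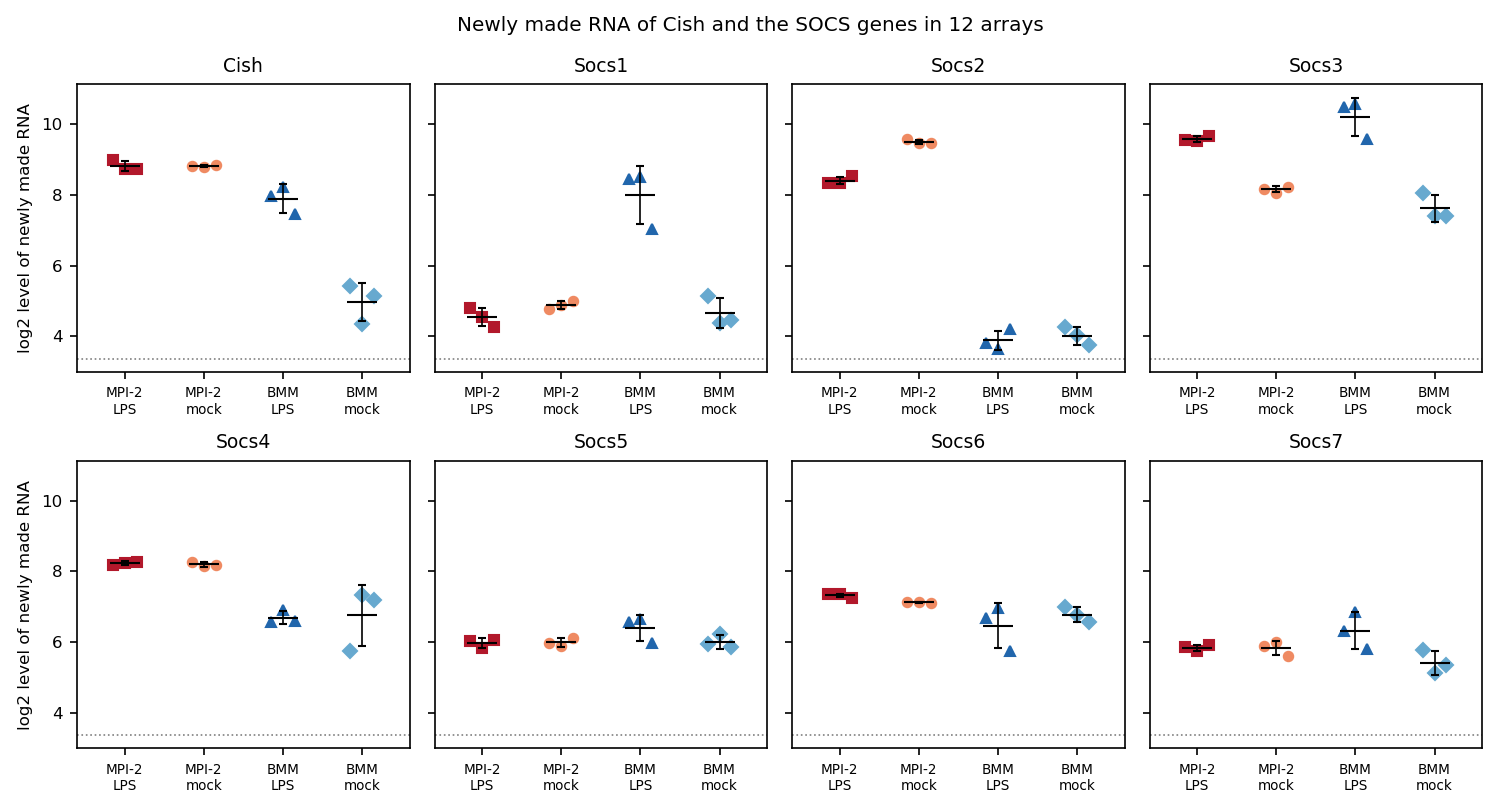
Log2 level of newly made RNA of each member on each of the 12 arrays (points), with the mean and SD of 3 arrays per group (bars) and the background level (dotted line). Cish and Socs2 sit high in both MPI-2 groups, Socs1 is high in BMM LPS alone, and Socs3 is higher with LPS in both cell types.

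The LPS response of BMM asks which brakes were newly transcribed in marrow macrophages in the 60 min of labelling that began 30 min after LPS. Socs1, Cish, Socs3 and Socs7 rose, and 0 of 8 members fell in limma (0 at an unadjusted p under 0.05). That is 4 of 8 members higher, where 10.3% of all genes were higher and 15.4% lower, at an adjusted p under 0.05. The median log2 difference was 0.64 over the members and 0.04 over all genes. In these bulk samples a change in the share of cells transcribing a gene and a change in RNA per cell cannot be told apart.

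Socs1 had log2 levels of 8.44, 8.51 and 7.04 in BMM LPS, against 5.13, 4.37 and 4.46 in BMM mock. All 3 LPS arrays lay above all 3 mock arrays, although replicate 3 was more than 1 log2 unit below the other two. The difference was 3.34 ± 0.31 (SE), a 10.1-fold increase with a 95% interval of 6.45 to 16 (adjusted p = 6.18e-07), and ranked 70th among increases of all genes. This SE, like the others here, rests on 1 spread per gene shared by all 4 groups. The SD of Socs1 was 0.83 in BMM LPS and 0.42 in BMM mock, against 0.26 in MPI-2 LPS and 0.11 in MPI-2 mock.

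Cish, whose protein competes with STAT5 for docking sites on receptors, had log2 levels of 7.98, 8.24 and 7.45 in BMM LPS and 5.42, 4.35 and 5.14 in BMM mock. The groups are separate, and the lowest LPS array stands well above the highest mock array. The log2 difference was 2.92 ± 0.23, or 7.59-fold (adjusted p = 1.35e-07).

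Socs3 had log2 levels of 10.48, 10.58 and 9.58 in BMM LPS against 8.06, 7.40 and 7.41 in BMM mock. The log2 difference was 2.59 ± 0.23, or 6.02-fold (adjusted p = 3.5e-07), again with no overlap. A second Socs3 probe set, 10383010, which shares no transcript accession with the first in the annotation, read 5.46, 6.40 and 5.44 in BMM LPS and 4.17, 3.42 and 3.66 in BMM mock, a log2 difference of 2.02 ± 0.28 (adjusted p = 7.54e-05 over all probe sets). Both Socs3 probe sets thus rose.

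Socs7, a member linked to insulin signalling, rose less. Its log2 levels were 6.31, 6.84 and 5.80 in BMM LPS and 5.77, 5.11 and 5.35 in BMM mock, and its log2 difference was 0.91 ± 0.22 (1.88-fold, adjusted p = 0.00577). The lowest LPS array and the highest mock array differ by little.

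The other 4 members did not pass the test in BMM. Their log2 differences were 0.38 ± 0.17 for Socs5 (adjusted p = 0.129), -0.32 ± 0.22 for Socs6 (0.336), -0.13 ± 0.16 for Socs2 (0.612) and -0.07 ± 0.28 for Socs4 (0.888). The second probe sets of Socs2 and Socs6 gave -0.04 ± 0.23 (0.927) and -0.29 ± 0.15 (0.181). Without BMM LPS replicate 3, Socs5 passed at 0.59 (adjusted p = 0.00627). Without BMM mock replicate 1, whose Socs4 level of 5.76 lies below the 7.34 and 7.18 of the other mock arrays, Socs4 fell, at -0.57 (adjusted p = 0.00498).

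In MPI-2, Socs3 rose with LPS, Socs2 fell, and Socs1 and Cish did not pass the test. This is 1 member higher and 1 lower of 8, where 5.17% of all genes were higher and 9.58% lower. The median log2 difference was 0.01 over the members and 0.02 over all genes.

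Socs3 had log2 levels of 9.55, 9.53 and 9.68 in MPI-2 LPS and 8.18, 8.07 and 8.24 in MPI-2 mock. The arrays within each group lie close together and the groups far apart, with a log2 difference of 1.42 ± 0.23 (2.67-fold, adjusted p = 0.000368). The second Socs3 probe set also rose, by 1.21 ± 0.28 (adjusted p = 0.00886), with 5.32, 5.53 and 6.20 in MPI-2 LPS and 4.11, 4.73 and 4.58 in MPI-2 mock.

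Socs2, best known as the brake on growth hormone signalling, had log2 levels of 8.35, 8.35 and 8.53 in MPI-2 LPS and 9.58, 9.47 and 9.46 in MPI-2 mock. Every LPS array lay below every mock array. The log2 difference was -1.09 ± 0.16, 2.13-fold lower (adjusted p = 0.000148). Its second probe set, 10372069, which shares 4 accessions with the first, fell as well, with a log2 difference of -0.77 ± 0.23 (adjusted p = 0.0374).

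Cish had log2 levels of 8.99, 8.73 and 8.74 in MPI-2 LPS and 8.83, 8.78 and 8.85 in MPI-2 mock. The groups overlap, and the log2 difference was 0.00 ± 0.23 with a 95% interval of -0.49 to 0.50 (adjusted p = 0.996). Socs1 had log2 levels of 4.80, 4.54 and 4.27 in MPI-2 LPS and 4.77, 4.89 and 4.99 in MPI-2 mock, which also overlap. Its log2 difference was -0.35 ± 0.31, with an interval of -1.0 to 0.30 (adjusted p = 0.613). All 6 MPI-2 values of Socs1 are above background.

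For Socs4, Socs5, Socs6 and Socs7 the log2 differences in MPI-2 lay between -0.02 and 0.20, with adjusted p from 0.727 to 0.986. Socs6, a member that binds the receptor Kit, had 7.35, 7.36 and 7.26 in MPI-2 LPS and 7.13, 7.13 and 7.12 in MPI-2 mock, so its groups did not overlap although the test was not passed.

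**Figure D2:**
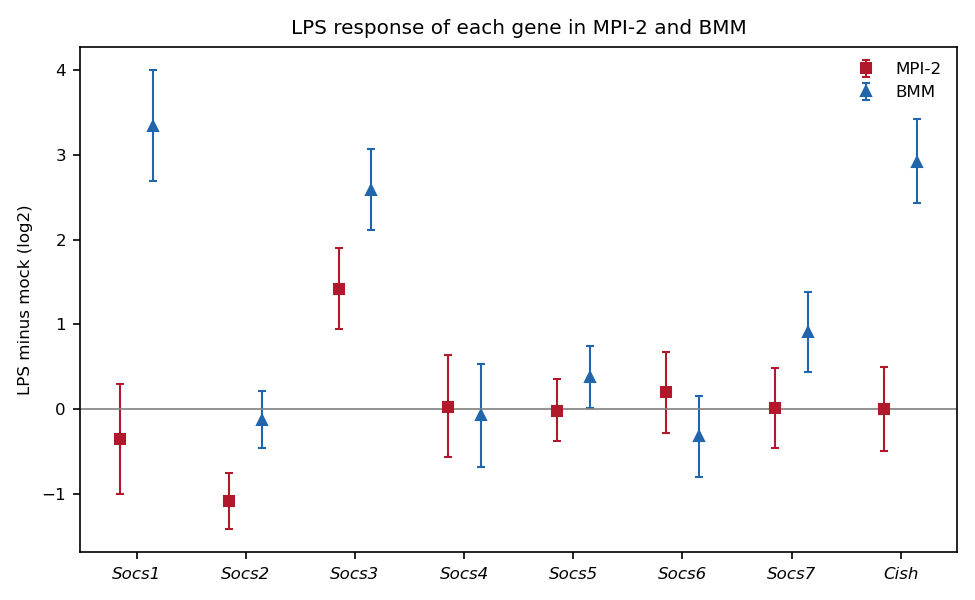
LPS minus mock difference (log2) of each member in MPI-2 (squares) and BMM (triangles), with 95% intervals from the limma model. Socs1 and Cish have intervals across 0 in MPI-2 and far above 0 in BMM, and Socs3 is above 0 in both.

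The difference between the LPS responses, MPI-2 minus BMM, was tested in the same model. It passed the test below 0 for Socs1, Cish, Socs3 and Socs2, so 0 of 8 members were called higher in limma (0 at an unadjusted p under 0.05) and 4 lower, where 7.08% of all genes were higher and 6.27% lower. The median was -0.93 over the members and -0.02 over all genes.

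For Socs1 the LPS difference was -0.35 in MPI-2 and 3.34 in BMM. The responses differed by -3.69 ± 0.43 (adjusted p = 2.44e-05), the 24th most negative of all genes. For Cish, with 0.00 in MPI-2 and 2.92 in BMM, they differed by -2.92 ± 0.33 (adjusted p = 1.62e-05), which ranked 62nd.

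For Socs3, with 1.42 in MPI-2 and 2.59 in BMM, they differed by -1.17 ± 0.32 (adjusted p = 0.0226). This call is the least stable of the 4. It was lost in 8 of the 12 fits that left out 1 array, with log2 differences of -0.99 to -1.16 and adjusted p of 0.0525 to 0.0626, namely the fits without BMM mock replicates 2 or 3, BMM LPS replicates 1 or 2, MPI-2 mock replicates 1 or 3 and MPI-2 LPS replicates 1 or 2. It was also lost after quantile normalization (-0.89, adjusted p = 0.139), with the mean of its probe sets (-0.99, 0.0568), and in its second probe set (-0.81 ± 0.40, 0.262).

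For Socs2, with -1.09 in MPI-2 and -0.13 in BMM, the responses differed by -0.96 ± 0.22 (adjusted p = 0.0077). In the second Socs2 probe set the difference was -0.73 ± 0.33 (adjusted p = 0.198). In BMM the first Socs2 probe set lay just above background, at 3.65 to 4.27, and the second at 4.30 to 5.27.

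Socs7 differed by -0.89 ± 0.31 (adjusted p = 0.0775) and passed without BMM LPS replicate 3 (-1.15, 0.00733) and without BMM mock replicate 1 (-1.07, 0.0246). Socs4 passed without BMM mock replicate 1 (0.61, 0.0347) and Socs5 without BMM LPS replicate 3 (-0.61, 0.0461). With all 12 arrays, Socs4, Socs5 and Socs6 had adjusted p of 0.385 to 0.933.

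**Figure D3:**
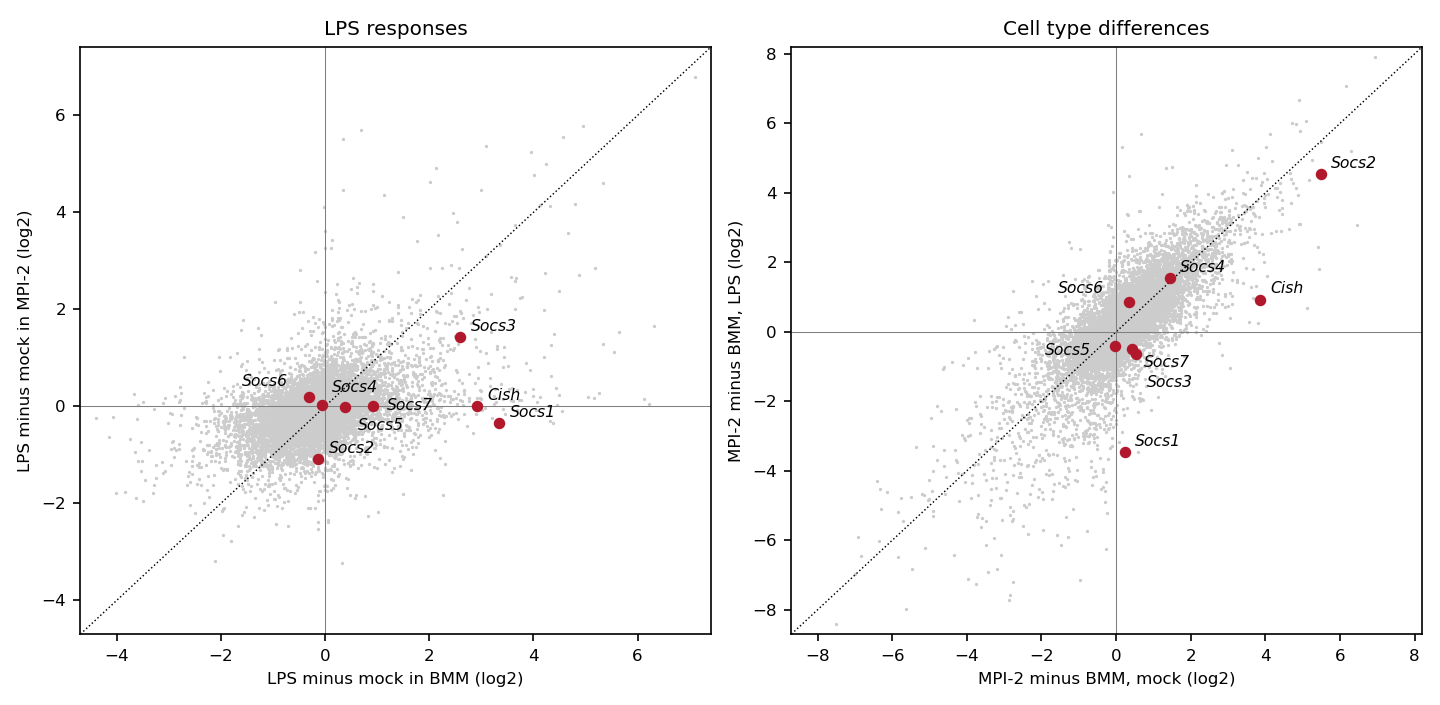
All 19937 genes (grey) with the 8 members (red). Left, LPS minus mock (log2) in MPI-2 against that in BMM. Right, MPI-2 minus BMM (log2) in LPS against that in mock. The dotted line marks equal values, and Socs1 and Cish lie far below it in both panels.

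Without LPS, MPI-2 and BMM differed most in Socs2 and Cish. Socs2, Cish and Socs4 were higher in MPI-2, 3 of 8 members, and 0 were lower in limma (0 at an unadjusted p under 0.05), where 20.6% of all genes were higher and 18% lower. The median log2 difference was 0.48 over the members and -0.10 over all genes, which for all genes came to -0.01 after quantile normalization or cyclic loess.

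Socs2 averaged 9.50 ± 0.06 in MPI-2 mock and 4.01 ± 0.26 in BMM mock (SD, n = 3 each), with single BMM mock arrays at 4.27, 4.02 and 3.74. The log2 difference was 5.49 ± 0.16, or 45-fold (adjusted p = 1.11e-12), the 5th largest increase of all genes. The second Socs2 probe set had 6.82, 6.36 and 7.09 in MPI-2 mock and 5.27, 4.58 and 4.62 in BMM mock, a log2 difference of 1.93 ± 0.23 (3.82-fold, adjusted p = 7.82e-06). The probe sets have the same direction and differ widely in size, and the mean of both gave a log2 difference of 3.71.

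Cish averaged 8.82 ± 0.03 in MPI-2 mock and 4.97 ± 0.55 in BMM mock (SD, n = 3 each). The log2 difference was 3.85 ± 0.23, or 14.4-fold (adjusted p = 2.49e-09), which ranked 54th. Socs4, linked to epidermal growth factor receptor turnover, had 8.27, 8.16 and 8.18 in MPI-2 mock and 5.76, 7.34 and 7.18 in BMM mock. Its log2 difference was 1.44 ± 0.28 (2.72-fold, adjusted p = 0.000729), and without the low BMM array of replicate 1 it was still past the threshold, at 0.94.

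The other members had log2 differences of 0.54 ± 0.23 for Socs3 (adjusted p = 0.0715), 0.42 ± 0.22 for Socs7 (0.152), 0.35 ± 0.22 for Socs6 (0.241), 0.23 ± 0.31 for Socs1 (0.583) and -0.02 ± 0.17 for Socs5 (0.926). The second probe sets gave 0.72 ± 0.28 for Socs3 (0.0589) and -0.21 ± 0.15 for Socs6 (0.292), which for Socs6 is opposite in sign to the first. Socs3 passed without BMM mock replicate 1 (0.76, 0.0139). Socs3 and Socs6 passed without BMM LPS replicate 3 (0.54, 0.0109, and 0.35, 0.0383), which brought the count to 5. That array is in neither mock group, so the 2 differences did not change. Only the shared spread shrank, with an SE of 0.16 in place of 0.23 for Socs3 and 0.13 in place of 0.22 for Socs6. Without both arrays 7 members were called higher, all but Socs5. Both arrays were picked by the members' own levels, with BMM mock replicate 1 the highest of its group for 6 of the 8. Leaving it out raises those 6 differences by construction, so the count of 7 is not independent support.

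With LPS in both cell types, Socs2, Socs4, Cish and Socs6 were higher in MPI-2, and Socs1 and Socs3 were lower. That is 4 and 2 of 8 members, where 22.5% of all genes were higher and 21.6% lower. The split depends on the scaling, with 3 higher and 3 lower after quantile normalization and 2 higher and 4 lower after cyclic loess. The median log2 difference was 0.22 over the members and -0.14 over all genes, and the median over all genes came to -0.02 after quantile normalization and -0.01 after cyclic loess.

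Socs1 averaged 4.54 ± 0.26 in MPI-2 LPS and 8.0 ± 0.83 in BMM LPS (SD, n = 3 each). It was 11-fold lower in MPI-2, with a log2 difference of -3.46 ± 0.31 (adjusted p = 1.59e-07). Socs2 averaged 8.41 ± 0.11 in MPI-2 LPS and 3.88 ± 0.28 in BMM LPS, 23.1-fold higher in MPI-2 (log2 difference 4.53 ± 0.16, adjusted p = 3.24e-12). Its second probe set gave 1.21 ± 0.23 (adjusted p = 0.000608), and the mean of both 2.87.

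Cish remained higher in MPI-2, by a log2 difference of 0.93 ± 0.23 (1.91-fold, adjusted p = 0.00427), against 3.85 in mock. Socs4 differed by 1.55 ± 0.28 (2.93-fold, adjusted p = 0.000352), with all MPI-2 arrays at 8.18 to 8.28 and the BMM arrays at 6.56 to 6.90. After cyclic loess the Cish call was lost (0.46, adjusted p = 0.154).

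Socs6 had 7.35, 7.36 and 7.26 in MPI-2 LPS and 6.67, 6.96 and 5.74 in BMM LPS, a log2 difference of 0.87 ± 0.22 (adjusted p = 0.00546). It fell short after quantile normalization (0.44, 0.108) and cyclic loess (0.39, 0.174). A second Socs6 probe set, 10460118, whose 5 accessions are all among those of the first, had 6.62, 6.87 and 6.65 in MPI-2 LPS and 6.30, 6.57 and 6.42 in BMM LPS, and gave 0.28 ± 0.15 (adjusted p = 0.13). The remaining Socs6 probe set, 10460116, stayed below background on all 12 arrays, at 1.95 to 2.32.

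Socs3 was lower in MPI-2 by a log2 difference of -0.63 ± 0.23 (adjusted p = 0.0345), but its arrays overlap, since BMM LPS replicate 3 at 9.58 falls among the MPI-2 values of 9.53 to 9.68. The call was lost in 5 of the fits without 1 array, those without BMM LPS replicates 1 or 2 (-0.50 and -0.44) and without any MPI-2 LPS replicate (-0.60 to -0.68). It was also lost with the mean of its probe sets (-0.36, adjusted p = 0.211), after quantile normalization (-0.65, 0.0622) and with the 6 LPS arrays alone (0.0525). The second Socs3 probe set gave -0.09 ± 0.28 (adjusted p = 0.819). Socs5 and Socs7 did not pass with all arrays, at -0.42 ± 0.17 (0.0585) and -0.48 ± 0.22 (0.0918), and passed without BMM LPS replicate 3, at -0.63 (0.00226) and -0.73 (0.00738).

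**Figure D4:**
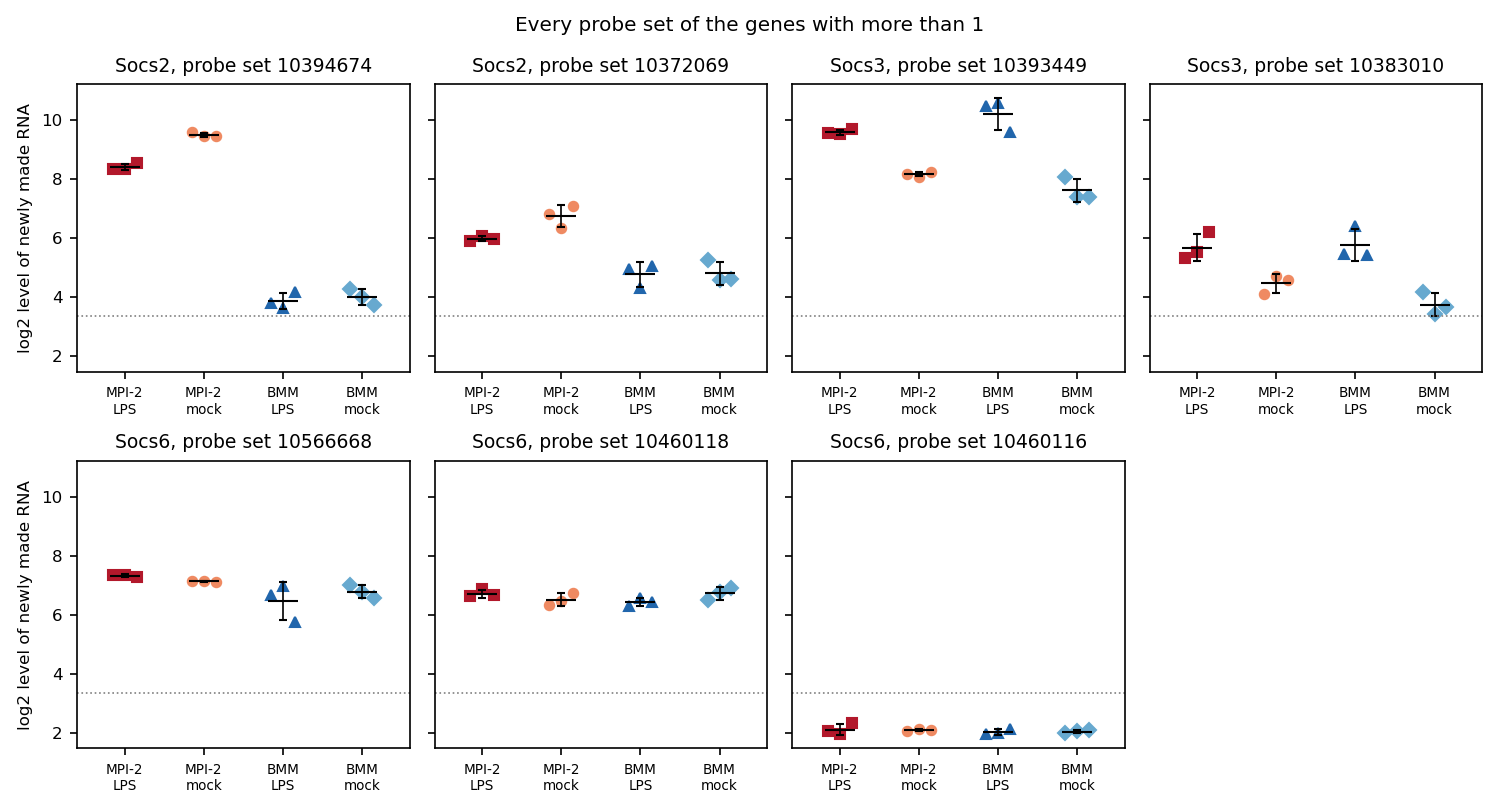
Log2 level on each array of all probe sets of the members that have more than 1, with group mean and SD (n = 3) and the background level (dotted line). The 2 probe sets of Socs2 move in the same direction between cell types but by 5.49 and 1.93 in mock, and probe set 10460116 of Socs6 stays below background.

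The order of the 4 groups differed from gene to gene. For Socs1, BMM LPS stood alone at the top, and MPI-2 mock, BMM mock and MPI-2 LPS overlapped below it. For Socs2, MPI-2 mock was followed by MPI-2 LPS and, far below, by BMM mock and BMM LPS, which overlapped. For Cish, both MPI-2 groups overlapped at the top, followed by BMM LPS and then BMM mock. For Socs3, BMM LPS was followed by MPI-2 LPS, which it overlapped, and by MPI-2 mock and BMM mock, which did not overlap but missed the threshold. For Socs4 both MPI-2 groups overlapped above both BMM groups, which overlapped as well. For Socs6 the order was MPI-2 LPS, MPI-2 mock, BMM mock and BMM LPS, and the BMM groups overlapped. Its second probe set had another order, with means of 6.71 in MPI-2 LPS, 6.51 in MPI-2 mock, 6.43 in BMM LPS and 6.72 in BMM mock. For Socs7 it was BMM LPS, MPI-2 LPS, MPI-2 mock and BMM mock, and each group overlapped the next. Socs5 had overlapping ranges within 5.82 to 6.64 throughout.

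By the smallest root mean square log2 difference over the 12 arrays, after each gene was centred on its own mean, the genes most like Socs1 among 11248 candidates were Calhm6 (0.40), Batf2 (0.46) and Nos2 (0.49), against a median of 1.60 over all candidates. Nos2, inducible nitric oxide synthase, averaged 3.04 in MPI-2 LPS, 2.93 in MPI-2 mock, 5.77 in BMM LPS and 3.00 in BMM mock. Those most like Socs2 were Tcaf1 (0.36), Mcemp1 (0.39) and Ghr (0.46), where the median was 2.52. Ghr, the growth hormone receptor, averaged 7.51 in MPI-2 LPS, 7.71 in MPI-2 mock, 3.11 in BMM LPS and 3.02 in BMM mock. For Cish they were Maff (0.52), Tfec (0.52) and Pstpip2 (0.53), median 1.64, and for Socs3 they were Ptges (0.28), Tpbg (0.30) and Nod2 (0.31), median 1.21. The nearest to Socs4 were Zmpste24, Erp44 and Cul2 (0.17 to 0.19), to Socs6 Fam220a, Mrpl22 and Atf6b (0.14 to 0.15), and to Socs7 Syvn1, Kmt2b and Zswim8 (0.17 to 0.18). These 12 arrays share 4 groups, so likeness is a description only.

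The pathway around the family was described with lists of ligands, receptors, kinases and other parts, whose shares stand beside those of all genes: 5.17% higher and 9.58% lower with LPS in MPI-2, 10.3% and 15.4% in BMM, and between cell types 20.6% and 18% in mock and 22.5% and 21.6% with LPS. Of 23 ligands of JAK-STAT receptors, 9 (39.1%) rose with LPS in MPI-2 and the other 14 did not pass. In BMM 12 (52.2%) rose, 1 (4.35%) fell and 10 did not pass. Il12b rose at least 28.2-fold in MPI-2 and at least 16.3-fold in BMM, bounds set by the background level because the mock groups lay below it. Il6, the ligand of the receptor that SOCS3 restrains, rose by 6.79 ± 0.24 on the log2 scale in MPI-2 and at least 90.9-fold in BMM. Il27 rose by 3.94 ± 0.16 in BMM and 0.74 ± 0.16 in MPI-2, and Csf3 at least 16.7-fold in MPI-2 and at least 1.02-fold in BMM. The responses differed for 10 ligands, 4 (17.4%) higher and 6 (26.1%) lower, where 7.08% of all genes were higher and 6.27% lower. Ifnb1, interferon beta, was 2.71 in MPI-2 LPS and 2.56 in MPI-2 mock, below background, and it rose at least 48.4-fold in BMM, with 8.96 in BMM LPS and 2.84, below background, in BMM mock. The test of its difference of responses gave an adjusted p of 2.19e-08.

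Of 30 receptors, 4 (13.3%) rose and as many fell in MPI-2, among them Il7r (1.62 ± 0.18) and Il6ra (-1.65 ± 0.21), the receptor of Il6. Il6ra and Il7r both fell in BMM (-1.60 ± 0.21 and -1.30 ± 0.18). In BMM 4 (13.3%) rose and 8 (26.7%) fell, among them Il15ra (3.29 ± 0.16), Csf3r (1.64 ± 0.15) and Csf2rb (-1.35 ± 0.14), the signalling chain of the GM-CSF receptor, which has a near-identical copy in the mouse and may share probes with it. Without LPS, 8 (26.7%) were higher and 14 (46.7%) lower in MPI-2. Il12rb2 was higher there by 4.39 ± 0.13, and Il7r lower, at -2.71 ± 0.18. Ghr was at least 20.3-fold higher in MPI-2 mock, a bound because 2 of the 3 BMM mock arrays lay below background.

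All 3 JAK kinases tested rose in both cell types. Jak2, a direct target of SOCS1, rose by 1.89 ± 0.17 in MPI-2 and 2.83 ± 0.17 in BMM, and its responses differed by -0.94 ± 0.23 (adjusted p = 0.0127). Jak1 rose by 0.76 ± 0.12 in MPI-2 and 0.62 ± 0.12 in BMM, and Tyk2 by 0.70 ± 0.17 in MPI-2 and 0.96 ± 0.17 in BMM.

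Among 6 STAT genes, Stat5a rose by 0.44 ± 0.14 in MPI-2 and 2.23 ± 0.14 in BMM, and the responses differed by -1.79 ± 0.20 (adjusted p = 1.31e-05). Stat5b fell in MPI-2 (-0.83 ± 0.18), and in BMM Stat2 rose (1.32 ± 0.16) and Stat6 fell (-0.64 ± 0.14). In mock, Stat2 was lower in MPI-2 (-2.14 ± 0.16), and Stat4 was at least 3.74-fold lower there, since it lay below background in MPI-2.

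Other inhibitors of the pathway, 17 genes, had 3 higher (17.6%) and 2 lower (11.8%) in MPI-2 and 5 higher (29.4%) and 3 lower (17.6%) in BMM. Usp18, which blocks the interferon receptor, rose in BMM (2.19 ± 0.14) and was lower in MPI-2 than in BMM by -6.14 ± 0.14 with LPS and -3.49 ± 0.14 without. Ptprc, the receptor phosphatase CD45, rose in MPI-2 (1.30 ± 0.18) and in BMM (0.91 ± 0.18). Its responses did not differ at the threshold (0.39 ± 0.25, adjusted p = 0.412). The phosphatases Ptpn1 and Ptpn2 were higher in MPI-2 mock than in BMM mock (1.44 ± 0.15 and 1.63 ± 0.18).

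Of the 8 ubiquitin ligase partners of the SOCS box, 1 (12.5%) rose in MPI-2, and 1 (12.5%) rose and 2 (25%) fell in BMM. The responses differed for 0 of 8 at an adjusted p under 0.05 in limma, and for 2 at an unadjusted p under 0.05. Over all genes, 7.08% were higher and 6.27% lower at the adjusted threshold. Between cell types 5 (62.5%) were higher and 1 (12.5%) lower in MPI-2 in mock, with a median log2 difference of 0.72 against -0.10 over all genes, and 7 (87.5%) and 1 (12.5%) with LPS, with a median of 1.17 against -0.14. Rbx1, a ring finger subunit, was higher in MPI-2 by 1.95 ± 0.19 with LPS and 1.60 ± 0.19 in mock. Rnf7, another ring finger subunit, was higher there by 1.55 ± 0.33 with LPS and did not pass in mock (0.51 ± 0.33). Ube2f, a conjugating enzyme for Nedd8, was lower there by -1.65 ± 0.15 with LPS and -1.12 ± 0.15 in mock.

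Of 16 other STAT5 target genes, 7 (43.8%) rose and 6 (37.5%) fell in MPI-2, and 3 (18.8%) rose and 6 (37.5%) fell in BMM. Ccnd2, cyclin D2, was higher in MPI-2 mock than in BMM mock (6.46 ± 0.14), rose in BMM (2.84 ± 0.14) and fell in MPI-2 (-0.55 ± 0.14). Its responses differed by -3.39 ± 0.20 (adjusted p = 2.73e-08). Id1 fell in both, by -2.08 ± 0.16 in MPI-2 and -1.52 ± 0.16 in BMM, and Bcl6 and Igf1 were lower in MPI-2 mock than in BMM mock (-3.04 ± 0.15 and -2.43 ± 0.12). The STAT5 targets as a list thus did not share 1 direction.

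Of 27 other genes with a SOCS box, 1 (3.7%) rose and 6 (22.2%) fell in MPI-2, and 1 (3.7%) rose and 8 (29.6%) fell in BMM. Spsb2 fell in both, by -0.96 ± 0.16 in MPI-2 and -1.41 ± 0.16 in BMM. Spsb1, which targets inducible nitric oxide synthase, fell in MPI-2 (-1.73 ± 0.16) and less in BMM (-0.73 ± 0.16), and its responses differed by -1.0 ± 0.23 (adjusted p = 0.00699). Of 8 proteins of the Toll-like receptor 4 and TNF receptor paths that SOCS proteins bind, 1 (12.5%) rose and 2 (25%) fell in MPI-2, and 4 (50%) rose and 1 (12.5%) fell in BMM. These counts include the TNF receptor Tnfrsf1a, which fell in MPI-2 (-0.87 ± 0.20) and rose in BMM (0.96 ± 0.20), and Fadd, which fell in BMM (-0.52 ± 0.13). Map3k5 rose in both, by 0.99 ± 0.15 in MPI-2 and 1.60 ± 0.15 in BMM, and Rela rose in BMM (0.82 ± 0.14).

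**Figure D5:**
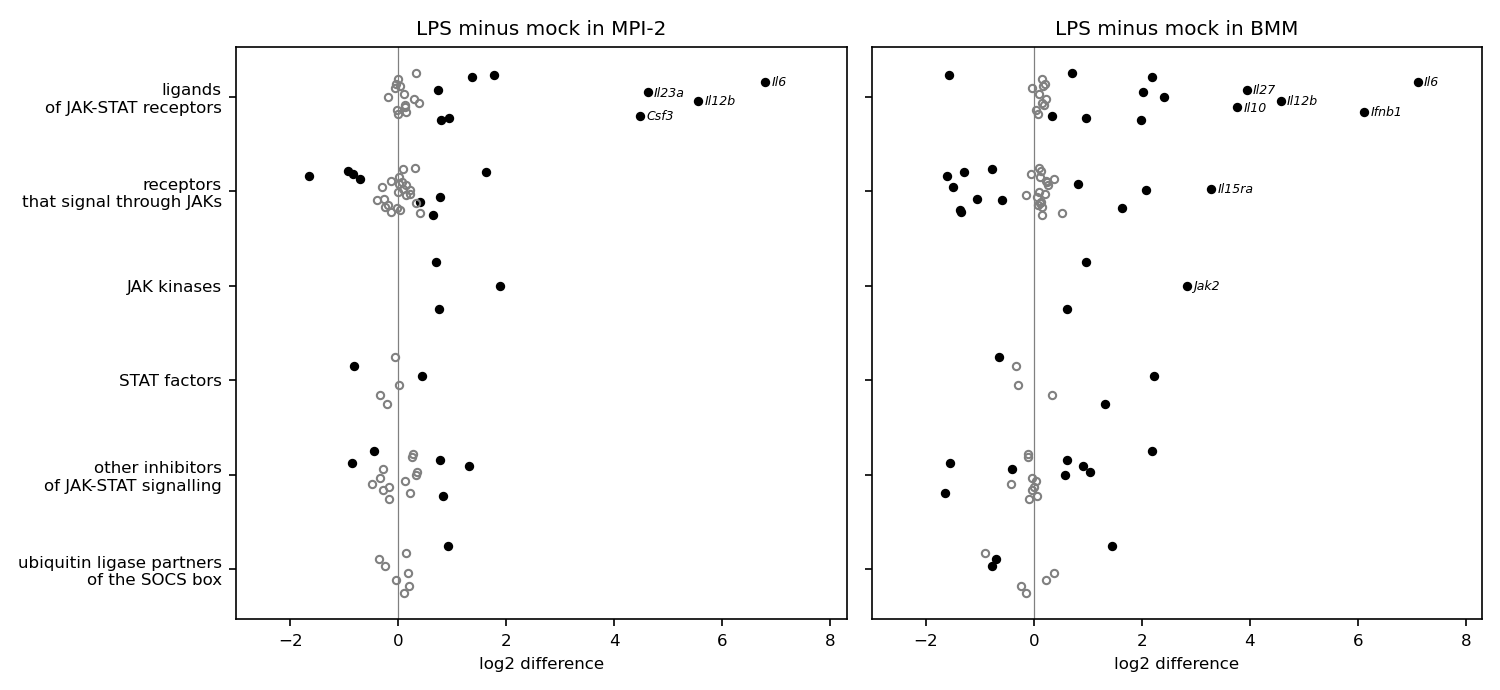
LPS minus mock difference (log2) of each tested gene of 6 lists in MPI-2 (left) and BMM (right). Filled points passed an adjusted p under 0.05 in limma and open points did not, and names are given for the points farthest from 0. All 3 JAK kinases and several ligands are filled and right of 0 in both panels.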

How the data were processed

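Values are on the log2 scale, 1 for each probe set on each array, as deposited, and the authors made them with RMA and the package affy, per the submitters' processing notes. Not given in the sources used here were the versions of both tools and whether all 12 arrays went through 1 run. Base 2 was taken from the method and the range of 1.18 to 12.82. RMA as published corrects background, quantile-normalizes probes and summarises probe sets, so an overall change in newly made RNA need not be visible, and differences are relative to the other genes. Array medians were 3.6 to 3.79, but interquartile ranges over all genes ran from 2.34 to 3.47, so the deposited arrays do not share 1 distribution. No 2 arrays were identical.

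Of 34760 probe sets, 21640 name 1 gene, 1321 several and 11799 none. Symbols were updated by Entrez identifier against RefSeq GRCm38.p6 (21553 matched), since the platform annotation is old. The probe set with the highest mean stood for a gene, without a filter on low values. Groups came from the labels. A model with 4 group means was fitted with limma 3.58.1 in R 4.3.3 (8 residual and 6.99 prior degrees of freedom), with Benjamini-Hochberg adjustment over all genes and a threshold of 0.05. Each gene had 1 residual spread shared by all 4 groups, so an SE or interval does not show the spread within 1 cell type. Second probe sets were adjusted over the 21640. The code was tested on simulated data. Alternatives left out arrays, added a replicate block, changed the scaling, the filter, the probe set rule or the weights. The titles speak of biological replicates, but no animal or culture is named for any array, so a p-value covers only the spread among these arrays, which may be technical. The small number of arrays limits the precision.

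Members, lists and arrays to leave out were chosen with earlier results of these data known. All members are named, and of each pathway list only genes among the 3 smallest adjusted p of a comparison or the same genes in another comparison. The 3 likest genes are given for each member called between 2 groups. Promoters came from RefSeq.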

Additional observations from a re-analysis of the deposited data

Results flagged for a closer look

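The LPS response differed between the cell types for 4 of the 8 members, all lower, by the test of the difference itself (limma, MPI-2 response minus BMM response, adjusted over all genes, of which 6.27% were lower and 7.08% higher). Socs1 differed by -3.69 on the log2 scale, and Cish by -2.92. Socs3 differed by -1.17, a call lost in 8 of the 12 fits without 1 array, and Socs2 by -0.96. For Socs1 and Cish every BMM LPS array lay above every BMM mock array, while the MPI-2 LPS and mock arrays overlapped. For Socs3 the LPS arrays lay above the mock arrays in both cell types, and for Socs2 the LPS arrays lay below the mock arrays in MPI-2 and overlapped them in BMM.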

How the results depend on the processing

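Of 19 member differences past the threshold, 15 stayed past it with the same sign under every alternative, which numbered 22 for each comparison of 2 groups and 21 for the difference of responses. The exceptions were the Socs3 difference of responses and the Socs3, Socs6 and Cish differences between cell types with LPS, given with their values beside those results. Of 21 differences that missed the threshold, 10 missed it throughout and the others passed it in at least 1 alternative. Counted separately, 11 of the 21, some from either set, changed sign in some alternative and did not pass with the changed sign. After quantile normalization or cyclic loess, Socs5 passed in the BMM response (0.56 and 0.62) and between LPS groups (-0.82 and -0.87), and Socs7 passed between LPS groups (-0.87 and -0.90) and in the difference of responses (-0.97 and -1.02). Ranges over the alternatives were 3.09 to 4.06 for Socs1, 2.61 to 3.37 for Cish, 2.30 to 3.12 for Socs3 and 0.65 to 1.35 for Socs7 for LPS in BMM, 1.31 to 1.46 for Socs3 and -1.25 to -0.93 for Socs2 for LPS in MPI-2, and 3.71 to 5.62 for Socs2 and 3.43 to 4.08 for Cish between mock groups. The number of members called between mock groups was 3, and became 6 with array weights. It became 7 when BMM LPS replicate 3 and BMM mock replicate 1 were both left out, arrays picked by the members' own levels. Leaving out 1 array at a time gave 3 to 5 for it, 5 to 8 between LPS groups, 3 to 6 for the difference of responses, 4 to 5 for the BMM response and 2 in every fit for the MPI-2 response. Over all genes, LPS in MPI-2 called 2941 and became 5183 with array weights and 5026 with the 6 MPI-2 arrays alone, and the cause was not tested.

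Replicate numbers are shared by all groups, and deviations of same-numbered arrays from their group means correlated at -0.15 to 0.24. With 3 arrays a group, these correlations cannot decide whether same-numbered arrays share an animal or culture, and the labels do not say. The numbers were not used as pairs in the main model. With the replicate number as a block, the members called numbered 4 in the BMM response, 2 in the MPI-2 response, 4 in the difference of responses, 3 between mock groups and 6 between LPS groups, and the genes called 5182, 2988, 2686, 7631 and 8786 in the same order. The labels give MPI-2 mock arrays different numbers in title and description, and the titles were used. The Socs2 probe set used lay within 1 log2 unit of background on all 6 BMM arrays, which limits what its BMM values can show.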
